A study of Mus musculus with 18 samples.

Results

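Gene expression was compared between B16F10 tumors that had received 1 intratumoral (IT) dose of exoCDN2 and tumors that had received 1 IT dose of PBS. This comparison rested on 4 of the 18 tumors of the series, 2 per group, chosen by the agent and dose number in the sample labels. It covered the 16927 genes, of 50600 in the table, that passed the filter on low counts, whether their levels were higher or lower. B16F10 is a melanoma cell line from C57BL/6 mice, and the tumors grew under the skin of the flank of C57BL/6 mice (females, 5 to 6 weeks old at purchase) whose own immune and stromal cells were present. CDN2, named CL656 in the labels, is a synthetic cyclic dinucleotide, and exoCDN2 (0.1 µg) is this compound loaded into extracellular vesicles (EVs) purified from human HEK293 cells that overexpress PTGFRN, a membrane protein abundant on EVs. Injected tumors were collected whole 24 h after the dose, and cDNA libraries made from their mRNA were sequenced. The other groups compared after 1 dose received unloaded EVs or free CDN2 (20 µg), also with 2 tumors each. Tumors given 2 doses of exoCDN2 (0.1 µg) or of PBS, 3 days apart and collected 24 h after the second dose (2 tumors each), were used for a test of the change with dose number and, for PBS, as added controls where named.

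STING is a receptor in the membrane of the endoplasmic reticulum that binds cyclic dinucleotides, among them the cGAMP made by cGAS when DNA appears in the cytosol. Bound STING recruits the kinase TBK1, which activates IRF3 and NF-kB, and these factors switch on type I interferons, cytokines and chemokines. Secreted interferon acts through the receptor IFNAR on neighbouring cells, where the transcription factor complex ISGF3, which includes STAT2 and IRF9, is formed. ISGF3 binds the interferon-stimulated response element (ISRE) in the promoters of the interferon-stimulated genes, whose products hinder viruses, present antigen and feed back on the pathway.

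The 4 tumors had total expected counts of 43549581 and 48388504 (PBS) and 48465555 and 42276054 (exoCDN2). Within each group the log2 levels of the 2 tumors correlated across genes with an r of 0.993 (PBS) and 0.991 (exoCDN2), and 3.85% and 4.97% of the genes differed by more than 2-fold between the 2 tumors. Mitochondrial transcripts made up 2.86% to 3.08% of the counts of these tumors. Levels are given below as CPM (a gene's counts relative to the total of the library, scaled by TMM), with the 2 tumors of a group in the order of their replicate numbers. Differences are given as log2 fold changes with standard errors (SE, after ±) and adjusted p-values from edgeR's quasi-likelihood test. Each SE was the absolute log2 fold change divided by the square root of the test's F statistic. It is thus derived from the test and is not a separate measure of the spread. Calls required both an adjusted p below 0.05 and a ratio above 2. Nothing in the labels says how the 2 tumors of a group relate, and the study describes them as biological replicates. The p-values rest on a spread estimated over 16 tumors in 8 groups, and not only on the tumors compared. Those groups included free CDN2 at 100 µg (1 dose) and at 20 µg (2 doses), which entered only this estimate. The tumors given 2 doses of CDN2 (20 µg) agreed least, with an r of 0.949 and 27.1% of the genes differing by more than 2-fold.

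A single dose of exoCDN2 raised many more genes than it lowered. Of the genes tested, 372 (2.2%) were called higher and 72 (0.425%) lower than with PBS. The higher genes included 333 protein-coding genes and the lower ones 68. In all 444 genes the 2 exoCDN2 tumors lay on the same side of both PBS tumors, although this also held for 11533 of all 16927 genes tested. The higher genes together took 6607 and 6730 CPM in the PBS tumors and 36751 and 39541 CPM in the exoCDN2 tumors. The lower genes fell from a summed 1068 and 1091 CPM to 373 and 417 CPM. With genes at 3 counts or fewer in both tumors of a group set to their bound, 245 of the higher genes changed more than 4-fold and 48 more than 16-fold, compared with 35 and 4 of the lower genes. The median log2 fold change was 2.43 over the higher genes and -1.99 over the lower genes on this scale, and -0.03 over all genes tested. With a tumor left out, its group held 1 tumor, which was assumed to vary like the tumors of the other groups, and 123 of the 372 higher genes and 4 of the 72 lower genes were called whichever of the 4 tumors was left out. No log2 fold change of the 444 genes changed sign. Over these 4 fits 745 calls of higher and 254 of lower genes were lost, and in 726 and 247 of these the ratio was still above 2 while the adjusted p was not below 0.05. For the lost calls named below, the adjusted p is given.

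**Figure D1:**
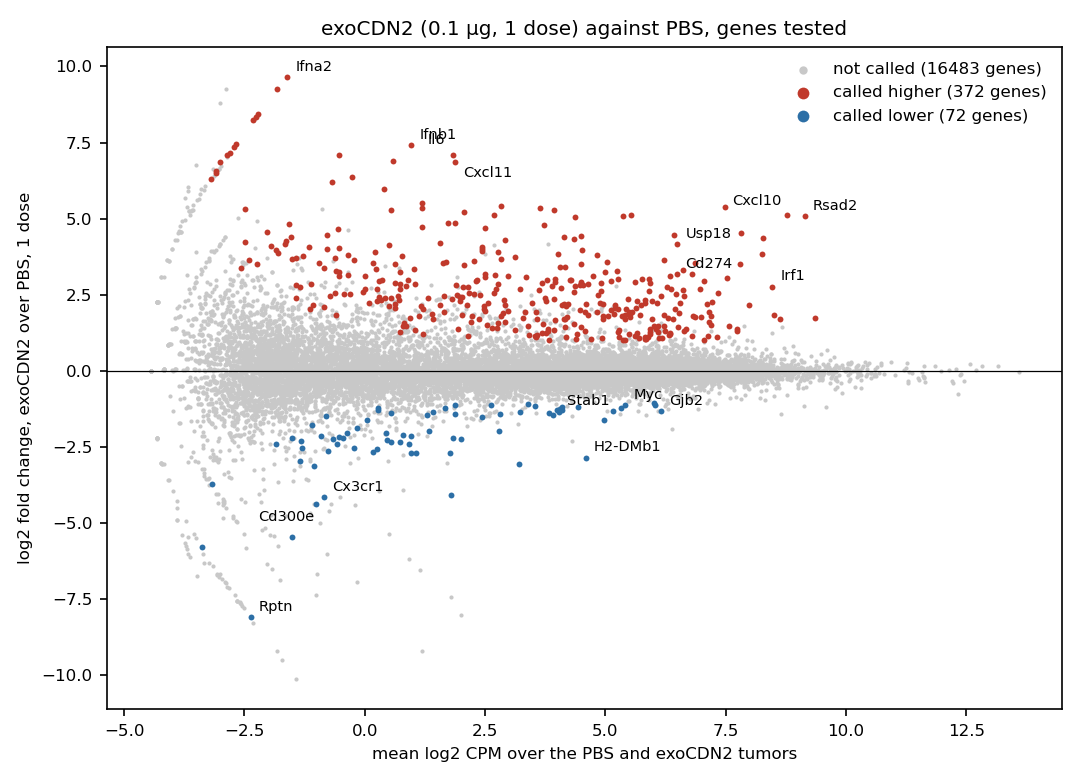
Log2 fold change of exoCDN2 against PBS after 1 dose (vertical axis) against the mean log2 CPM over the tumors (horizontal axis, log2 scale), with 1 point per gene tested. The 372 genes called higher (red) reach far above 0 at all levels, while the 72 called lower (blue) are fewer and lie mostly at low to middle levels.

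Interferon ligands were at or near 0 in PBS tumors, and some of them were detected in exoCDN2 tumors. Of 20 type I and type III interferon genes, 18 had no count in each PBS tumor and 5 and 4 had none in the exoCDN2 tumors, with Ifna13, Ifna7, Ifne and Ifnk at 0 in all 4 tumors. Of the 20 genes, 8 passed the filter, and 3 of these were called higher. Their median log2 fold change was 7.44 as fitted and 3.78 with genes at the floor of 3 counts set to their bound. Ifnb1, which encodes interferon beta, was at 0.132 and 0.12 CPM in PBS tumors and at 24.1 and 20.1 CPM in exoCDN2 tumors. The groups lay far apart, and the log2 fold change was 7.42 ± 1.16 (adjusted p = 0.00479). Ifna2, an interferon alpha gene, had no count in either PBS tumor and 2.22 and 2.37 CPM in the exoCDN2 tumors, at least 36.4-fold higher (adjusted p = 0.0112). Ifna4, another interferon alpha gene, likewise went from no count to 0.98 and 0.976 CPM, at least 15.5-fold higher (adjusted p = 0.0176). These genes lie in the interferon cluster on chromosome 4 (Ifnb1 at chr4:88522025-88522774, Ifna2 at chr4:88682881-88683912 and Ifna4 at chr4:88841861-88842421, GRCm38), and their sequences are close enough that reads could be shared among the Ifna genes. All 3 calls were lost when either PBS tumor was left out, with an adjusted p of up to 0.0954 for Ifnb1, 0.1 for Ifna2 and 0.138 for Ifna4, and that of Ifna4 also without either exoCDN2 tumor. Ifng, the type II interferon made by T and NK cells, was at 0.949 and 1.56 CPM with PBS and at 4.54 and 8.18 CPM with exoCDN2 and was not called (log2 fold change 2.34 ± 0.86, adjusted p = 0.195). Since the RNA came from whole tumors, a change in the number of cells of a type and a change in the RNA per cell cannot be told apart for any gene described here.

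The promoters of 6 genes that rose and 1 that fell are printed because the core letters of the ISRE recur in the first and are missing from the last. The sequences are those of RefSeq for GRCm38.p6, 250 bases long up to the base before the transcription start, and read 5′ to 3′ on the strand of the gene. The windows are Isg15 (chr4:156200819-156201068, minus strand), Ifit1 (chr19:34640639-34640888, plus strand), Ifit3 (chr19:34583279-34583528, plus strand), Rsad2 (chr12:26456453-26456702, minus strand), Cxcl10 (chr5:92348890-92349139, minus strand), Ifna4 (chr4:88841566-88841815, plus strand) and Cx3cr1 (chr9:120068297-120068546, minus strand). Capitals mark matches to the core letters of the ISRE on either strand, which are GAAA, any 2 bases, and GAAA again.
Isg15: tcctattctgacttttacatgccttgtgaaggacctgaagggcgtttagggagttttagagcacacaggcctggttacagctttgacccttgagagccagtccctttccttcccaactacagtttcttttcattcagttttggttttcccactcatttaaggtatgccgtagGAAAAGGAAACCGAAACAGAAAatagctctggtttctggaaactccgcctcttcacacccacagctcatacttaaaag
Ifit1: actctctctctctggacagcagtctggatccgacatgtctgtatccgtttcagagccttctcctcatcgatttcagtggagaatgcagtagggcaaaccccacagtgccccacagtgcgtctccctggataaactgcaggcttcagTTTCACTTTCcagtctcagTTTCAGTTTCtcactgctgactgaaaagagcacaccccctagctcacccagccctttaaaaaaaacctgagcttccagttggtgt
Ifit3: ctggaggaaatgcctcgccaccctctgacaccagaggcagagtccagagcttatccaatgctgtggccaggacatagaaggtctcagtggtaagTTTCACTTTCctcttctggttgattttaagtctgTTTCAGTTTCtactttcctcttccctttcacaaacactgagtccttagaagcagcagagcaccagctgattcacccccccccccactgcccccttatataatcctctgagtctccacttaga
Rsad2: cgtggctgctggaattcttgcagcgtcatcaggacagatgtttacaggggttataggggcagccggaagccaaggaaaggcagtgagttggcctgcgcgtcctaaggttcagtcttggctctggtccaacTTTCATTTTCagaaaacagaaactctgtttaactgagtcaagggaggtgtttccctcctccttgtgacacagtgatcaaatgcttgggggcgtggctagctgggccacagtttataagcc
Cxcl10: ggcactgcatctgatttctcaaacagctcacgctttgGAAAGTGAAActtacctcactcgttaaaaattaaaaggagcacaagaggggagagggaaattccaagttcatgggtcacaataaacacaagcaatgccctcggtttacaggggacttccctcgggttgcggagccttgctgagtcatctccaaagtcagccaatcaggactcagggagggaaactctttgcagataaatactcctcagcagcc
Ifna4: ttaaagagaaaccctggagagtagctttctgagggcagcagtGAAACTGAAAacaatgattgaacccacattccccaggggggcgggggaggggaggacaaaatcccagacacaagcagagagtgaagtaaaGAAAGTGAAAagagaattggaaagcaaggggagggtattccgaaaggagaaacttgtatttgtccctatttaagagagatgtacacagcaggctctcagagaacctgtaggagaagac
Cx3cr1: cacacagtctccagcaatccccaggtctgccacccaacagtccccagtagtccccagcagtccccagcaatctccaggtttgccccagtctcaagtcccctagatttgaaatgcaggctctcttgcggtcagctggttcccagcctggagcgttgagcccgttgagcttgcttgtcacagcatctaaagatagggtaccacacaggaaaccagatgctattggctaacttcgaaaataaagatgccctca
The Isg15 window holds 3 overlapping matches between 78 and 57 bases before the start. Ifit1 has 2 matches between 104 and 76 bases before its start and Ifit3 has 2 between 156 and 113 bases. The single match of Rsad2 lies 120 to 111 bases and that of Cxcl10 213 to 204 bases before the start. Ifna4 has 2 matches, from 208 to 109 bases before its start. The window of Cx3cr1 holds no match, which says only that these letters are not in this window.

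Promoter windows could be found for 270 of the 372 higher genes, 53 of the 72 lower genes and 11883 of the 16889 tested gene symbols. The ISRE letters (GAAA, any 2 bases, GAAA), read on both strands, occurred in 57 of the 270 higher genes (21.1%), in 0 of the 53 lower genes and in 406 of the tested genes with a window (3.42%), compared with 2.98% of all 32851 windows in the table. They were about as frequent among genes raised more than 8-fold (19 of 87, 21.8%) as among the other higher genes (38 of 183, 20.8%). Of the 77 matches in higher genes, 55 (71.4%) lay within 150 bases of the start, against 261 of 465 (56.1%) among all tested genes. The letters TTCNNNGAA, which STAT dimers bind, were in 11.9% of the higher, 9.43% of the lower and 7.3% of all tested genes with a window, and 7.02% of all windows. Those of an NF-kB site (GGGA, any 4 bases, CC) were in 30.4%, 24.5% and 26% of the same sets, and in 17.6% of all windows. Of the 77 ISRE matches in higher genes, 2 overlapped a match of the other letters. By list, the ISRE letters stood in 9 of 10 windows of the Gbp and Irg GTPases, in 11 of 25 of the antiviral effectors and in 5 of 8 of the interferons, but in 0 of 15 of the myeloid cell chemokines and 1 of 18 of the cytokines. These counts describe the letters in the windows and involve no test.

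Interferon-induced antiviral effectors had the highest share of calls among the 38 lists examined. Of 32 such genes tested, 27 were called higher and 0 lower, with a median log2 fold change of 2.74 against -0.02 over all genes. Usp18, a protease that removes ISG15 from proteins and dampens the interferon receptor, was at 21.9 and 20.9 CPM in PBS tumors and at 353 and 412 CPM in exoCDN2 tumors. It had the smallest p-value of all genes (log2 fold change 4.16 ± 0.23, adjusted p = 8.07e-06). Isg15, the ubiquitin-like modifier whose promoter is printed above, went from 30.8 and 31.7 to 308 and 309 CPM, 9.88-fold higher (adjusted p = 2.94e-05). In both genes the exoCDN2 tumors differed from each other far less than from the PBS tumors. Rsad2, which encodes viperin, an enzyme that makes a chain-terminating nucleotide, was at 105 and 89.2 CPM with PBS and at 3128 and 3437 CPM with exoCDN2, 33.8-fold higher (adjusted p = 4.26e-05). Its neighbour on chromosome 12, Cmpk2, a mitochondrial nucleotide kinase, went from 48.6 and 45.4 to 925 and 1245 CPM (log2 fold change 4.53 ± 0.30, adjusted p = 1.26e-05). The groups of tumors lay far apart for both genes.

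The IFIT genes encode proteins that bind foreign 5′ ends of RNA, and all 6 of them that were tested were called higher. Ifit3 was at 67 and 69.8 CPM in PBS tumors and at 1364 and 1419 CPM in exoCDN2 tumors (log2 fold change 4.35 ± 0.34, adjusted p = 3.06e-05). Ifit2 went from 78.6 and 83.6 to 1004 and 1299 CPM (log2 fold change 3.83 ± 0.42, adjusted p = 0.000338). Ifit1, named here after its values were seen, went from 28.2 and 27.6 to 1187 and 1133 CPM, 41.6-fold higher. These genes are neighbours on chromosome 19, and Ifit3 shares much of its sequence with Ifit3b. Active 2′-5′ oligoadenylate synthetases switch on RNase L. All 9 tested genes of the family, grouped by symbol (Oas1 to Oas3, Oasl1 and Oasl2), were called higher, and not all need encode an active enzyme. Oasl2 went from 37.3 and 36.2 CPM to 197 and 224 CPM (log2 fold change 2.52 ± 0.19, adjusted p = 2.86e-05). Oas1h had no count in PBS tumors and 0.4 and 0.604 CPM with exoCDN2, at least 7.96-fold higher (adjusted p = 0.00646), a call lost without either PBS tumor (adjusted p up to 0.0821), and the Oas1 genes are near copies of each other.

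Further families of interferon-stimulated genes rose in part. The Ifi20x family of DNA-binding proteins had 9 of 13 tested members called higher, the Phf11 family 4 of 4, the Slfn family 4 of 7 and the Parp family 6 of 12, while 12 of 53 Trim genes were called. No member of these families was called lower. Trim21, a cytosolic antibody receptor and ubiquitin ligase, was at 20.2 and 22.1 CPM in PBS tumors and at 161 and 178 CPM in exoCDN2 tumors (log2 fold change 3.00 ± 0.18, adjusted p = 9.79e-06). Trim25, the ligase that ubiquitylates RIG-I, went from 68.2 and 61.1 to 291 and 299 CPM (log2 fold change 2.19 ± 0.15, adjusted p = 1.58e-05). Dtx3l, a ubiquitin ligase that works with Parp9, went from 51.4 and 47.1 to 293 and 343 CPM (log2 fold change 2.69 ± 0.16, adjusted p = 9.79e-06). The spread within a group was small for all 3 ligases. Tor3a, an interferon-induced ATPase of the endoplasmic reticulum, rose 9.01-fold from 36.9 and 37.7 CPM to 304 and 369 CPM. Helz2, a helicase and nuclear coactivator, rose 8.67-fold from 31.4 and 23.9 CPM to 232 and 248 CPM, and Mitd1, which acts in the final step of cell division, 3.8-fold from 22.6 and 23.4 CPM to 83.8 and 91.1 CPM. These 3 genes had adjusted p-values between 1.03e-05 and 3.06e-05. Bst2, which encodes tetherin, was not called and was at 213 and 236 CPM with PBS and at 170.2 and 214 CPM with exoCDN2 (adjusted p = 0.739).

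Per transcript length, Cxcl10 was the most abundant of these transcripts. Its mean level was 99.8 TPM, a level divided by transcript length and scaled to the library, in PBS tumors and 3462 TPM in exoCDN2 tumors. On the same scale, Ifit3 went from 119 to 2429 TPM, Rsad2 from 68.1 to 2306 TPM, Ifit1 from 31.9 to 1331 TPM and Isg15 from 125 to 1243 TPM.

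Among the signal transducers of the interferon and STING pathway, 8 of 23 genes were called higher and 0 lower (median log2 fold change 0.77). These 8 were Stat2, Irf9 and Irf1 and, named after their values were seen, Cgas, Ifi204, Irf2, Irf7 and Jak2. Stat2, the transactivating subunit of ISGF3, was at 31.2 and 29.5 CPM in PBS tumors and at 168 CPM in both exoCDN2 tumors (log2 fold change 2.47 ± 0.20, adjusted p = 4.02e-05). Irf9, its DNA-binding partner, went from 38.5 and 36.9 to 95 and 98.6 CPM (log2 fold change 1.36 ± 0.11, adjusted p = 4.07e-05). Irf1, a transcription factor induced by both type I and type II interferon, went from 128 and 146 to 845 and 1009.9 CPM (log2 fold change 2.76 ± 0.31, adjusted p = 0.000345). All 3 kept their calls when any single tumor was left out. Tmem173, which encodes STING itself, was at 55.2 and 56.5 CPM with PBS and 64.8 and 80.8 CPM with exoCDN2 (log2 fold change 0.38 ± 0.16, adjusted p = 0.246). The kinase gene Tbk1 was at 36.5 and 35.6 against 60.8 and 61.7 CPM, which had an adjusted p of 0.0103 but a ratio of 1.7, below the limit. Irf3 and the receptor genes Ifnar1 and Ifnar2 had log2 fold changes of -0.12, 0.06 and 0.27 and were not called. Tbk1, Irf3, Ifnar1 and Ifnar2 were added by name after their values were seen.

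Of 22 genes for RNA and DNA sensors and Toll-like receptors, 8 were called higher and 0 lower (median log2 fold change 0.64). Ddx58, which encodes the RNA sensor RIG-I, was at 50.5 and 45.2 CPM in PBS tumors and at 363 and 377 CPM in exoCDN2 tumors (log2 fold change 2.95 ± 0.22, adjusted p = 2.86e-05). Ifih1, which encodes the related sensor MDA5, went from 34.6 and 34.3 to 417 and 379 CPM (log2 fold change 3.53 ± 0.30, adjusted p = 4.90e-05). Tlr2, a receptor for bacterial lipoproteins, went from 5.7 and 5.26 to 51.7 and 65.7 CPM (log2 fold change 3.42 ± 0.34, adjusted p = 0.000157). Cgas, the DNA sensor upstream of STING and named after its values were seen, was at 11.3 and 11 CPM with PBS and at 44.9 and 43.6 CPM with exoCDN2 (log2 fold change 1.99 ± 0.25, adjusted p = 0.000764). The genes for these 3 nucleic acid sensors thus rose, whereas STING was not called.

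The interferon-inducible GTPases of the Gbp and Irg families, which attack vacuoles of pathogens, had 8 of 18 members called higher and 0 lower (median log2 fold change 1.45). The comparison with unloaded EVs had 16 of the 18 called higher and 0 lower (median 2.92). Unloaded EVs against PBS had 0 of 18 positive (median -1.62) and 0 called, so the count depended on the control. Gbp5 was at 19.8 and 22.8 CPM in PBS tumors and at 248 and 277 CPM in exoCDN2 tumors (log2 fold change 3.62 ± 0.38, adjusted p = 0.000238). Irgm2 went from 118 and 122 to 486 and 597 CPM (log2 fold change 2.17 ± 0.25, adjusted p = 0.000488). Irgm1, at 339 and 389.6 CPM with PBS, reached 1104 and 1298 CPM (log2 fold change 1.72 ± 0.34, adjusted p = 0.0164). Gbp3 went from 63.5 and 74.2 to 227 and 239 CPM (log2 fold change 1.76 ± 0.31, adjusted p = 0.00729). The call of Irgm1 was lost without any of the 4 tumors (adjusted p up to 0.185) and that of Gbp3 without either PBS tumor (up to 0.121), and neither was called when the PBS tumors of both dose numbers were pooled. Genes of the Irgm and Gbp families share sequence, so reads may be split among them.

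Genes for feedback inhibitors rose alongside. Of 16 tested, 9 were called higher and 0 lower, with a median log2 fold change of 2.08. Nfkbie, which encodes an inhibitor that holds NF-kB in the cytoplasm, was at 10.6 and 9.93 CPM in PBS tumors and at 97.6 and 96.5 CPM in exoCDN2 tumors (log2 fold change 3.24 ± 0.32, adjusted p = 0.000149). Tnfaip3, which encodes the ubiquitin-editing enzyme A20, went from 7.35 and 6 to 79 and 72.1 CPM (log2 fold change 3.50 ± 0.41, adjusted p = 0.000547). Bcl3, a nuclear partner of NF-kB subunits, went from 2.83 and 2.44 to 23 and 22.7 CPM (log2 fold change 3.12 ± 0.40, adjusted p = 0.000998). The 2 exoCDN2 tumors nearly coincided for each of the 3 genes. Of the 5 NF-kB subunit genes, Rel, Nfkb2 and Relb were called higher, and of 7 Socs genes, which encode suppressors of cytokine signalling, Socs1, Socs2 and Socs3 were.

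**Figure D2:**
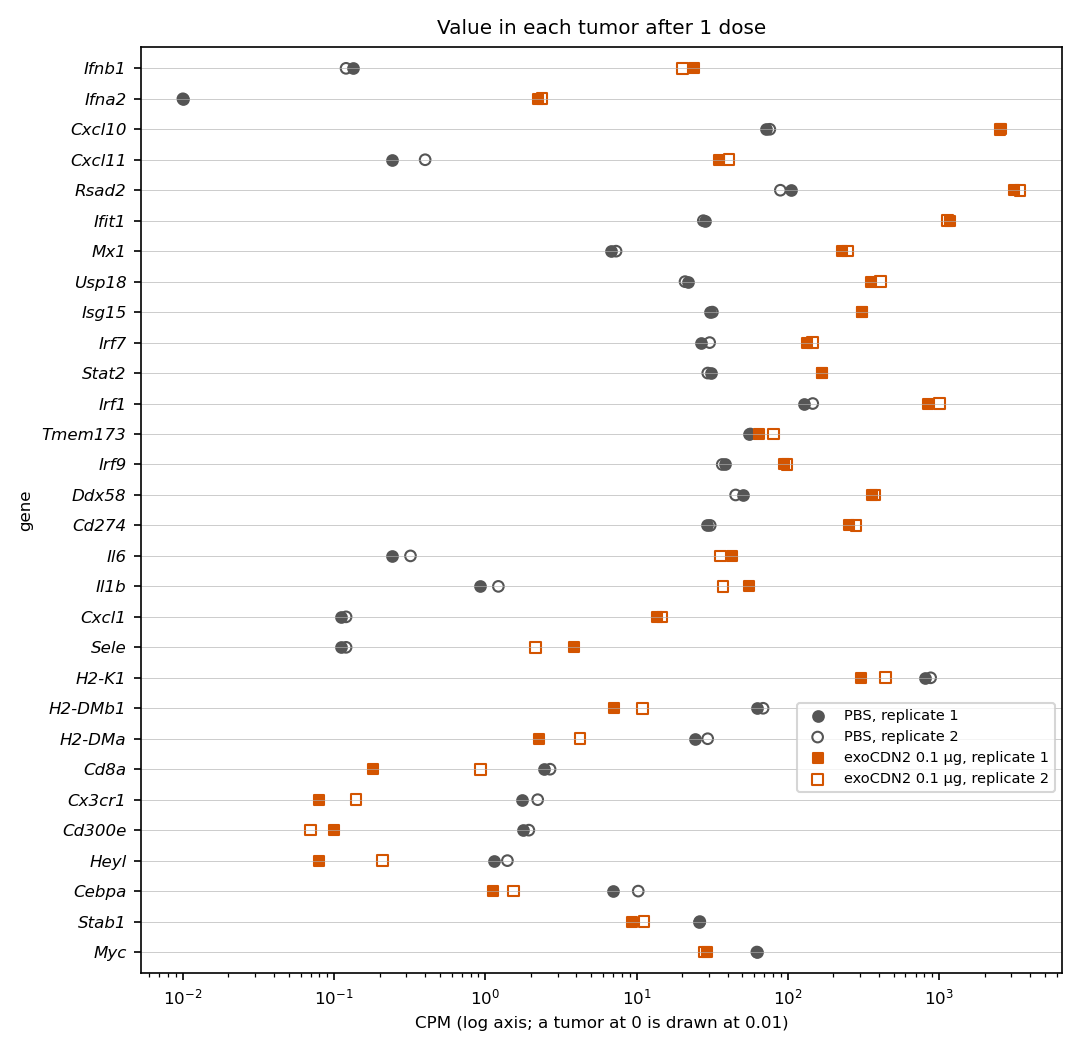
Level of 30 genes in each of the 2 PBS and 2 exoCDN2 tumors after 1 dose, as CPM on a log axis on which a value of 0 is drawn at 0.01. The 2 tumors of a group lie close together for most genes, and the exoCDN2 tumors are apart from the PBS tumors for every interferon-stimulated gene shown.

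RNA levels rose for all 3 ligand genes of CXCR3, the chemokine receptor of activated T and NK cells. Of 18 tested ligands of CXCR3 and other lymphocyte chemokines, 6 were called higher and 0 lower (median log2 fold change 0.80, or 0.59 with genes at the floor set to their bound). These ligands, Cxcl9, Cxcl10 and Cxcl11, are neighbours on the minus strand of chromosome 5 (chr5:92321347-92328079, chr5:92346638-92348889 and chr5:92359544-92365485). Cxcl10 was at 72.2 and 76 CPM in PBS tumors and at 2584 and 2532 CPM in exoCDN2 tumors (log2 fold change 5.11 ± 0.44, adjusted p = 4.90e-05). Cxcl11 went from 0.243 and 0.4 to 34.9 and 40.8 CPM (log2 fold change 6.86 ± 0.62, adjusted p = 7.10e-05). The annotation lists it as a polymorphic pseudogene, which is disrupted in some mouse strains. Its RNA therefore need not give a working protein in these C57BL/6 mice. Cxcl9 started from a higher level relative to its change, at 42.3 and 53.4 CPM with PBS and 122 and 190.2 CPM with exoCDN2 (log2 fold change 1.70 ± 0.37, adjusted p = 0.0275). The call of Cxcl9 was lost without either PBS tumor or the second exoCDN2 tumor (adjusted p up to 0.267) and with the PBS tumors of both dose numbers pooled. Ccl5, a chemokine that attracts T cells and monocytes, went from 4.24 and 4.8 to 98.1 and 84.3 CPM (log2 fold change 4.33 ± 0.38, adjusted p = 5.82e-05).

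Among chemokines and growth factors of myeloid cells, 10 of 21 were called higher and 1 lower, with a median log2 fold change of 3.11 (2.89 with genes at the floor set to their bound). Ccl2, which attracts monocytes through CCR2, was at 12.6 and 11.8 CPM in PBS tumors and at 133 and 105 CPM in exoCDN2 tumors (log2 fold change 3.29 ± 0.46, adjusted p = 0.00166). Ccl7, a second ligand of CCR2, went from 8.83 and 9.29 to 87.6 and 69.3 CPM (log2 fold change 3.11 ± 0.37, adjusted p = 0.000524). Csf1, the growth factor of macrophages, went from 23.3 and 21.7 to 149.9 and 183 CPM (log2 fold change 2.89 ± 0.39, adjusted p = 0.00133). All 3 were called whichever tumor was left out. The neutrophil-attracting chemokines Cxcl1, Cxcl2 and Cxcl5, chosen after their values were seen, were also called. Cxcl1 was at 0.11 and 0.12 CPM with PBS and at 13.6 and 14.7 CPM with exoCDN2 (adjusted p = 0.00462, up to 0.0906 without a PBS tumor). The gene called lower was Cx3cr1, described among the genes that fell.

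Cytokines and members of the TNF family included 11 called higher of 25 tested and 0 called lower (median log2 fold change 2.47, or 2.34 with genes at the floor set to their bound). Tnfsf10, which encodes the death ligand TRAIL, was at 3.84 and 4.66 CPM in PBS tumors and at 54.3 and 67.7 CPM in exoCDN2 tumors (log2 fold change 3.84 ± 0.33, adjusted p = 4.90e-05). Tnf went from 1.26 and 1.4 to 21.4 and 21.5 CPM (log2 fold change 4.01 ± 0.61, adjusted p = 0.00302). Il1b, which encodes the inflammasome product interleukin-1 beta, went from 0.927 and 1.22 to 55.6 and 37.3 CPM (log2 fold change 5.43 ± 0.84, adjusted p = 0.00345). Each of these genes was many times higher in both exoCDN2 tumors. Il6, another inflammatory cytokine chosen after its values were seen, was at 0.243 and 0.32 CPM with PBS and at 42.5 and 35.9 CPM with exoCDN2 (log2 fold change 7.10 ± 1.12, adjusted p = 0.00376). The calls of Tnf, Il1b and Il6 were lost without either PBS tumor, with adjusted p-values of up to 0.0691 for Tnf and 0.0781 for Il1b. Il10 and Il12b were not called (adjusted p = 0.142 and 0.218).

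Markers of neutrophils summed to a higher level with exoCDN2, and a minority of them passed the test against PBS. Of 11 tested, 3 were called higher and 0 lower, and 10 had a positive log2 fold change (median 3.09, or 2.30 with genes at the floor set to their bound). Their summed level was 6.27 and 7.43 CPM in PBS tumors, 71.5 and 45.0 CPM in exoCDN2 tumors, 14.2 and 9.51 CPM with unloaded EVs, and 18.6 and 38.7 CPM with CDN2 (20 µg). Against unloaded EVs, 0 of the 11 were called, although 10 had a positive log2 fold change (median 1.93). Unloaded EVs against PBS also had 10 positive (median 1.07) and 0 called. Cxcr2, the chemokine receptor of neutrophils, was at 0.11 and 0.04 CPM with PBS and at 8.1 and 4.44 CPM with exoCDN2 (log2 fold change 6.36 ± 1.14, adjusted p = 0.00861). Csf3r, the receptor of the neutrophil growth factor G-CSF, went from 1.35 and 2.12 to 12.3 and 6.39 CPM (log2 fold change 2.42 ± 0.56, adjusted p = 0.0354). Retnlg, a resistin-like gene of neutrophils, had 3 counts or fewer in each PBS tumor and 5.3 and 2.83 CPM with exoCDN2 (adjusted p = 0.0152). The first exoCDN2 tumor was the higher of the 2 for all 3 genes. These 3 calls were lost without either PBS tumor, and those of Csf3r and Retnlg also without the first exoCDN2 tumor (adjusted p up to 0.151 for Cxcr2, 0.319 for Csf3r and 0.198 for Retnlg). The part of this marker level in the rise of Il1b, Cxcl1 and other genes that myeloid cells express was not tested.

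Genes for leukocyte adhesion and coagulation included 5 called higher of 19 and 0 called lower (median log2 fold change 1.26). Sele, which encodes E-selectin on activated endothelium, was at 0.11 and 0.12 CPM in PBS tumors and at 3.84 and 2.14 CPM in exoCDN2 tumors (log2 fold change 4.66 ± 0.70, adjusted p = 0.00288). Selp, which encodes P-selectin of endothelium and platelets, went from 0.508 and 0.919 to 18.8 and 7.57 CPM (log2 fold change 4.20 ± 0.68, adjusted p = 0.00432). Icam1, the ligand of leukocyte integrins, went from 5.96 and 7.6 to 39.1 and 30.6 CPM (log2 fold change 2.36 ± 0.49, adjusted p = 0.0199). The calls of Sele and Selp were lost without either PBS tumor (adjusted p up to 0.0675 and 0.0944) and that of Icam1 without any of the 4 tumors (up to 0.217). The markers of endothelial cells themselves had a median log2 fold change of -0.02, with 0 of 11 higher and 1 lower.

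Of 18 checkpoint and costimulation genes, 4 were called higher and 0 lower (median log2 fold change 0.67). Cd274, which encodes the checkpoint ligand PD-L1, was at 29.2 and 30.7 CPM in PBS tumors and at 254 and 283 CPM in exoCDN2 tumors (log2 fold change 3.17 ± 0.46, adjusted p = 0.00227). Cd80, a ligand of CD28 and CTLA-4, went from 0.331 and 0.42 to 2.2 and 2.3 CPM (log2 fold change 2.57 ± 0.52, adjusted p = 0.0186). Cd86, the other ligand of this pair, went from 2.01 and 3.36 to 12.4 and 10.9 CPM (log2 fold change 2.12 ± 0.46, adjusted p = 0.0253). Lgals9, which encodes galectin-9, rose 2.21-fold from 95.4 and 93.7 to 194 and 225 CPM (adjusted p = 0.00143). Lgals9 was called whichever tumor was left out, whereas the call of Cd274 was lost without either PBS tumor (adjusted p up to 0.0546) and those of Cd80 and Cd86 without any of the 4 tumors (up to 0.203 and 0.274). Cd69, an early activation marker that type I interferon also induces on lymphocytes, went from 0.64 and 0.68 to 20.2 and 17.8 CPM (log2 fold change 4.84 ± 0.74, adjusted p = 0.00302), a call lost without either PBS tumor (up to 0.0691). Ccr7, which guides dendritic cells and T cells to lymph nodes, went from 1.13 and 2.04 to 10.4 and 10.9 CPM (log2 fold change 2.75 ± 0.43, adjusted p = 0.00376), a call lost without the first PBS tumor (0.0796).

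No gene for antigen presentation was called higher than with PBS. None of 21 genes for MHC class I presentation was called in either direction, and 7 had a positive log2 fold change (median -0.34). This median was 0.34 when the PBS tumors of both dose numbers were pooled, so its sign rested on the choice of PBS tumors. Against unloaded EVs, 5 of the 21 were called higher and 0 lower, and 16 had a positive log2 fold change (median 0.61). Unloaded EVs against PBS had 0 of 21 positive (median -1.11) and 0 called. B2m, the light chain of class I, was at 1205 and 1328 CPM in PBS tumors and at 629.6 and 880.0 CPM in exoCDN2 tumors (log2 fold change -0.75 ± 0.29, adjusted p = 0.229). The heavy chain genes H2-K1 and H2-D1 and the immunoproteasome gene Psmb8, named after their values were seen, had log2 fold changes of -1.17, -1.18 and -1.93 and were not called (adjusted p = 0.125, 0.0871 and 0.0862). Of 13 genes for MHC class II presentation, 0 were called higher and 2 lower, and all 13 had a negative log2 fold change (median -1.25, or -0.53 with the PBS tumors pooled). H2-DMb1, a subunit of the chaperone that loads peptides on class II, was at 62.4 and 68.6 CPM with PBS and at 7.14 and 10.9 CPM with exoCDN2 (log2 fold change -2.86 ± 0.53, adjusted p = 0.0103). H2-DMa, the partner subunit, was at 24.3 and 29.5 against 2.26 and 4.23 CPM (log2 fold change -3.06 ± 0.73, adjusted p = 0.0415). Both calls were lost without any of the 4 tumors (adjusted p up to 0.144 and 0.355) and with the PBS tumors pooled. Tumors given unloaded EVs had H2-DMb1 at 13.8 and 37.9 CPM, between the other groups, and 53.4 and 93.2 CPM with CDN2 (20 µg).

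T cell genes were low in all 4 tumors and none was called. The 14 markers of T cells summed to 17.6 and 22.6 CPM in PBS tumors and 11.7 and 16.8 CPM in exoCDN2 tumors, and 2 of them had a positive log2 fold change (median -1.37). Cd8a was at 2.43 and 2.68 CPM with PBS and at 0.18 and 0.929 CPM with exoCDN2 (log2 fold change -2.22 ± 0.77, adjusted p = 0.172). Cd4 was at 0.883 and 1.36 against 1.1 and 0.697 CPM (adjusted p = 0.896). Lck, the T cell kinase and the marker of the list with the highest level, was at 5.01 and 6.2 against 7.64 and 9.11 CPM (adjusted p = 0.273). The 14 transcription factors of Th1 and memory T cells had 0 calls and a median log2 fold change of -0.17 (0.15 with the PBS tumors pooled). Tbx21, which encodes T-bet, had a log2 fold change of -0.62 ± 0.43 (adjusted p = 0.552), at 0.419 and 0.779 against 0.34 and 0.441 CPM. Tcf7, which encodes TCF1, had one of -0.26 ± 0.20 (adjusted p = 0.601), at 16.3 and 16.4 against 11.4 and 15.9 CPM. Of 12 genes for cytotoxic effectors, 0 were called (median 0.21), and Gzmb, which encodes granzyme B, was at 5.37 and 5.98 against 7.96 and 10.4 CPM (adjusted p = 0.542).

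Of 27 cell death genes, 4 were called higher and 0 lower (median log2 fold change 0.39). Ripk2, a kinase downstream of NOD receptors, was at 12.1 and 12.9 CPM in PBS tumors and at 86.1 and 106 CPM in exoCDN2 tumors (log2 fold change 2.94 ± 0.24, adjusted p = 4.02e-05). Casp4, the caspase that senses cytosolic lipopolysaccharide, went from 4.26 and 5.66 to 38.2 and 39.6 CPM (log2 fold change 2.97 ± 0.36, adjusted p = 0.00058), and it was the only one of 9 tested caspase genes to be called. Ripk1, a kinase that directs TNF receptor signals to survival or death, rose 2.16-fold from 38.9 and 38.2 to 78.2 and 88.3 CPM (adjusted p = 0.000547). These 3 were called whichever tumor was left out. Bbc3, which encodes the p53 target PUMA, was at 8.12 and 8.47 against 8.16 and 8.45 CPM (adjusted p = 0.999).

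The 72 lower genes were mostly of low abundance, with a median level of 4.12 CPM in PBS tumors. The median in PBS tumors was 5.06 CPM for the higher genes and 14.1 CPM over all genes tested, so both called sets were low. Cx3cr1, the fractalkine receptor of macrophages and patrolling monocytes, was at 1.74 and 2.22 CPM in PBS tumors and at 0.08 and 0.139 CPM in exoCDN2 tumors (log2 fold change -4.16 ± 0.59, adjusted p = 0.00186). Cd300e, an activating receptor of patrolling monocytes, was at 1.77 and 1.94 against 0.1 and 0.0697 CPM (log2 fold change -4.39 ± 0.64, adjusted p = 0.00222). With unloaded EVs these genes were at 0.371 and 0.58 CPM (Cx3cr1) and 0.109 and 0.177 CPM (Cd300e), so both were also low in tumors that received vesicles without CDN2. The difference between exoCDN2 and unloaded EVs was not called for either gene (adjusted p = 0.0934 for Cx3cr1 and 0.775 for Cd300e). Klrc1, which encodes the NK cell receptor NKG2A, was likewise at 1.06 and 1.82 CPM with PBS, 0.2 and 0.348 CPM with exoCDN2 (adjusted p = 0.0241) and 0.109 and 0.353 CPM with unloaded EVs. The call of Klrc1 was lost without any of the 4 tumors (adjusted p up to 0.272) and with the PBS tumors pooled. Of the cell type lists, which do not hold Cx3cr1 or Cd300e, 0 of 10 monocyte markers and 0 of 13 macrophage markers were called, with medians of 0.02 and -0.30. Klrc1 was the only one of 9 NK cell markers called. Adgre1, which encodes the macrophage antigen F4/80, was at 18.5 and 27.9 against 21.8 and 15.6 CPM (adjusted p = 0.815).

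Other lower genes encode transcription factors and regulators of growth. Cebpa, a factor of myeloid and fat cell differentiation, was at 7 and 10.3 CPM in PBS tumors and at 1.12 and 1.53 CPM in exoCDN2 tumors (log2 fold change -2.70 ± 0.47, adjusted p = 0.00731), while its relative Cebpd, chosen after its values were seen, rose from 3.33 and 4 to 26 and 21.6 CPM (adjusted p = 0.00559). Myc, the growth-promoting transcription factor, was at 62.9 and 62.4 against 29.4 and 28.1 CPM (log2 fold change -1.12 ± 0.22, adjusted p = 0.0145). Tfap4, a transcription factor gene that MYC activates, was at 11.1 and 11.8 against 4.36 and 4.2 CPM (log2 fold change -1.42 ± 0.24, adjusted p = 0.00566). The 2 tumors of each group nearly coincided for Myc and Tfap4. Heyl, a transcriptional repressor downstream of Notch, was at 1.15 and 1.4 against 0.08 and 0.209 CPM (log2 fold change -3.14 ± 0.51, adjusted p = 0.00482). It was the only one of 6 tested genes of the Hes and Hey family to be called. Pou3f2, which encodes the neural and melanoma factor BRN2, was at 0.618 and 0.68 against 0.18 and 0.0929 CPM (adjusted p = 0.0465). With a tumor left out, the calls of Myc and Pou3f2 were lost without any of the 4, those of Cebpa and Tfap4 without the second PBS tumor or either exoCDN2 tumor, and that of Heyl without the second PBS tumor or the first exoCDN2 tumor. Adjusted p-values then reached 0.131 for Myc, 0.301 for Pou3f2, 0.111 for Cebpa, 0.0689 for Tfap4 and 0.0742 for Heyl. Myc and Pou3f2 were also not called with the PBS tumors pooled.

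Some lower genes belong to surfaces, junctions and vessels. Stab1, a scavenger receptor of macrophages and sinusoidal endothelium, was at 26 and 26.2 CPM in PBS tumors and at 9.28 and 11.2 CPM in exoCDN2 tumors (log2 fold change -1.35 ± 0.23, adjusted p = 0.0066). Cldn5, the tight junction protein of endothelium, was at 2.45 and 3.04 against 0.44 and 0.488 CPM (log2 fold change -2.56 ± 0.44, adjusted p = 0.00693). Gjb2, which encodes the gap junction protein connexin 26, was at 114 and 111 against 41.5 and 48.3 CPM (log2 fold change -1.33 ± 0.23, adjusted p = 0.00729) and was with Rapgef3 one of the most abundant of the lower genes. Rapgef3, an exchange factor that responds to cyclic AMP, was at 99.2 and 93.3 against 43 and 45.8 CPM (log2 fold change -1.12 ± 0.23, adjusted p = 0.0176). Ubald1 and 2900026A02Rik, whose functions are little described, were with Cx3cr1 and Cd300e the genes called lower whichever tumor was left out. Ubald1 was at 32.4 and 32.8 against 14.7 and 13.8 CPM (log2 fold change -1.20 ± 0.18, adjusted p = 0.0027, not called with the PBS tumors pooled). 2900026A02Rik was at 3.18 and 2.68 against 0.68 and 0.511 CPM (log2 fold change -2.29 ± 0.29, adjusted p = 0.000867). The calls of Stab1 and Gjb2 were lost without either PBS tumor or the first exoCDN2 tumor (adjusted p up to 0.0993 and 0.103), that of Cldn5 without the second PBS tumor or either exoCDN2 tumor (up to 0.0949), and that of Rapgef3 without any of the 4 (up to 0.169).

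Markers of skin differed widely between tumors of one group and were low in both exoCDN2 tumors. The 13 markers of keratinocytes and skin summed to 221.8 and 125.7 CPM in PBS tumors, to 3.28 and 0.488 CPM in exoCDN2 tumors, to 105.6 and 0.454 CPM with unloaded EVs, and to 10.2 and 2.99 CPM with CDN2 (20 µg). All 13 had a negative log2 fold change (median -4.99, or -4.25 with genes at the floor set to their bound), but 0 were called. Krt14, the keratin of the basal layer, was at 88.1 and 47.7 CPM with PBS and at 0.4 and 0.0929 CPM with exoCDN2 (log2 fold change -8.05 ± 2.72, adjusted p = 0.156), and it was at 30.5 CPM in one and 0.101 CPM in the other tumor given unloaded EVs. Rptn, which encodes the epidermal protein repetin, was at 0.905 and 0.66 CPM with PBS and had no count in either exoCDN2 tumor, at least 12.1-fold lower (adjusted p = 0.0218). Its call was lost without any of the 4 tumors (adjusted p up to 0.136) and with the PBS tumors pooled. Tns4, an adaptor protein of focal adhesions, was at 1.24 and 1.28 against 0.22 and 0.302 CPM (adjusted p = 0.00661). Lgals7, which encodes the epithelial galectin-7 and was chosen after its values were seen, was at 15.2 and 12.4 against 3.36 and 3.58 CPM (adjusted p = 0.0144). With unloaded EVs, Tns4 was at 1.07 and 0.883 CPM, Lgals7 at 12.9 and 7.57 CPM and Rptn at 0.0436 and 0 CPM, so only Rptn was low in both tumors and Tns4 did not follow the skin markers there. Both calls were lost with the PBS tumors pooled and without either PBS tumor or the first exoCDN2 tumor, and that of Lgals7 also without the second exoCDN2 tumor (adjusted p up to 0.107 and 0.145). The part of the skin markers in the change of Rptn, Lgals7 and other genes expressed in epithelium was not tested.

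Most other programs of the tumor were not called. Of 17 melanocyte lineage genes, which mark the tumor cells, 0 were called, with a median log2 fold change of -0.06. Dct and Tyrp1, enzymes of melanin synthesis, were at 6791 and 6457 against 6818 and 6709.6 CPM and at 6952 and 6922 against 8166 and 7179 CPM. Of 30 cell cycle genes, 0 were called (median 0.09), and of 21 genes for oxidative phosphorylation, 0 (median -0.06). The 27 genes for glycolysis and the hypoxia response had 0 calls and a lower median of -0.45, with 2 of 27 log2 fold changes above 0. Pdk1, the kinase that keeps pyruvate from the mitochondria, was at 131 and 119 CPM with PBS and at 66.9 and 72.1 CPM with exoCDN2 (adjusted p = 0.0204), a ratio of 1.8 that was below the limit. Against unloaded EVs, 4 of the 27 were called lower and 0 higher (median -0.53). These were Pdk1 (log2 fold change -1.06, adjusted p = 0.00525) and, named after their values were seen, the lactate exporter Slc16a3 (-1.33, adjusted p = 0.00684), the mitophagy gene Bnip3 (-1.25, adjusted p = 0.0233) and Ankrd37 (-1.92, adjusted p = 0.0154). The stress and unfolded protein response list had 2 of 24 called higher (median -0.01), both immediate early transcription factor genes. Atf3 went from 18.8 and 19.1 to 71.3 and 82.8 CPM (adjusted p = 0.0191) and Fos from 24 and 25 to 66.4 and 57.2 CPM (adjusted p = 0.0106). Of 21 genes of sterol synthesis and export, 1 was called higher (median -0.20), namely Ch25h, an interferon-induced enzyme that makes 25-hydroxycholesterol, which went from 2.98 and 2.44 to 11.9 and 13.3 CPM (adjusted p = 0.0158). The calls of Atf3 and Ch25h were lost without any of the 4 tumors (adjusted p up to 0.185 and 0.198) and that of Fos without either PBS tumor or the first exoCDN2 tumor (up to 0.13).

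The remaining lists had few calls or none. Matrix proteins and remodelling enzymes had 0 calls among 23 genes (median log2 fold change 0.52), and complement and Fc receptors 0 among 20 (median 0.12). Markers of B cells (4 tested, median -0.66), fibroblasts and pericytes (10 tested, median 0.23), adipocytes (7 tested, median 0.10), mast cells, basophils and eosinophils (6 tested, median 1.01) and red blood cells (6 tested, median 1.20) had 0 calls. Of 13 dendritic cell markers, 1 was called higher, which was Ccr7 (median -0.29), and of 9 NK cell markers 1 was called lower, which was Klrc1 (median -0.41). All 12 skeletal muscle markers had a positive log2 fold change without a call (median 1.59), and their sum was uneven at 108 and 176 CPM with PBS and 713 and 225 CPM with exoCDN2.

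**Figure D3:**
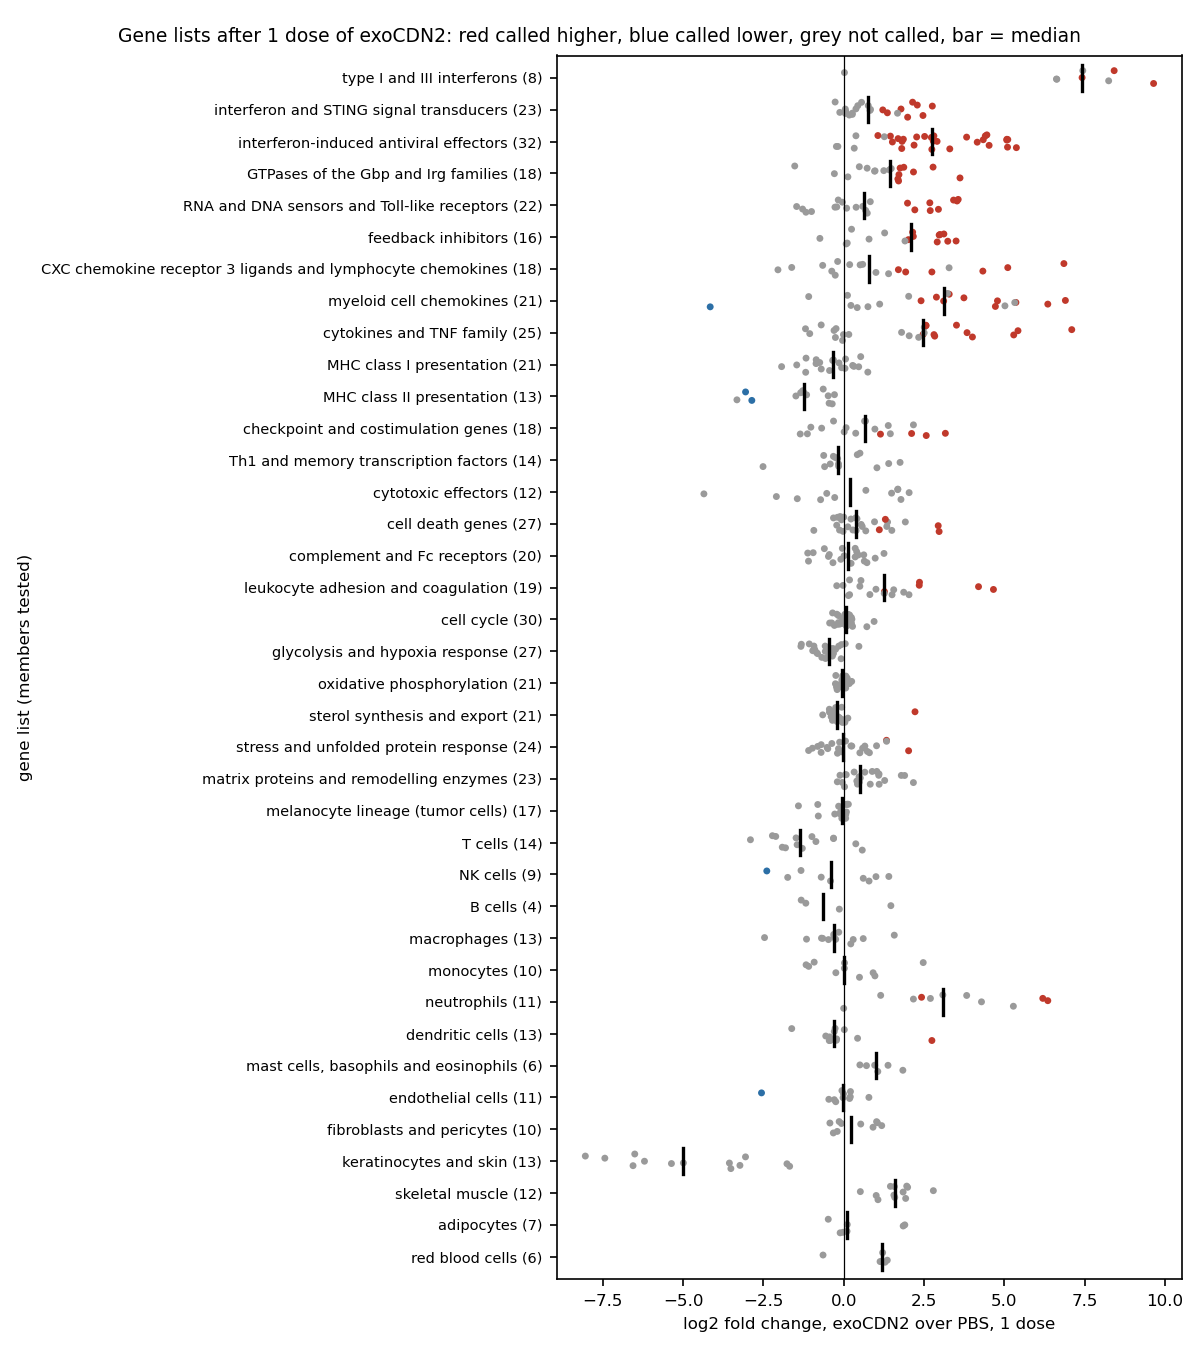
Log2 fold change of exoCDN2 against PBS after 1 dose for each tested member of 38 gene lists, with members called higher in red, called lower in blue and not called in grey, and a bar at each list's median. The antiviral effectors have 27 of 32 members in red, whereas the MHC, cell cycle, metabolic and melanocyte lists stay grey apart from 2 MHC class II genes in blue and 1 gene of sterol synthesis and export in red.

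Among the higher genes were some outside these lists. Bmp10, a ligand of the BMP family, had no count in PBS tumors and 0.62 and 1.09 CPM in exoCDN2 tumors, at least 13.6-fold higher (adjusted p = 0.00574). Mrgpra2b, a G protein-coupled receptor gene with close copies, had no count with PBS and 2.2 and 1.32 CPM with exoCDN2, at least 27.9-fold higher (adjusted p = 0.0245). The calls of Bmp10 and Mrgpra2b were lost without either PBS tumor, and that of Mrgpra2b also without either exoCDN2 tumor (adjusted p up to 0.0675 and 0.198).

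Unloaded EVs served as the control for the vesicle, and 0 genes were called between them and PBS by edgeR (540 at an unadjusted p under 0.05). ExoCDN2 tumors had 427 genes called higher (2.52%) and 72 lower (0.425%) than tumors given unloaded EVs. The comparison with unloaded EVs and that with PBS share the exoCDN2 tumors, so they are not independent. Usp18 was at 17.5 and 11.2 CPM with unloaded EVs against 353 and 412 CPM with exoCDN2 (log2 fold change 4.73, adjusted p = 1.29e-06). Irf1, at 128 and 146 CPM with PBS, was at 46.1 and 71.6 CPM with unloaded EVs, and its log2 fold change against unloaded EVs was 3.98 (adjusted p = 2.30e-05). Cxcl9 was at 9.14 and 15 CPM with unloaded EVs, with a log2 fold change of 3.69 (adjusted p = 0.000247). Ifng was called in this comparison, with 0.131 and 0.328 CPM after unloaded EVs (log2 fold change 4.80, adjusted p = 0.022). H2-DMb1 and Cldn5 were not called against unloaded EVs (adjusted p = 0.159 and 0.101). Neither were Myc (log2 fold change -0.77, adjusted p = 0.0888), Stab1 (-0.82, adjusted p = 0.0836) and Rapgef3. Rapgef3 had a log2 fold change of -0.93 (adjusted p = 0.0425), under the ratio limit. Cebpa, Tfap4, Heyl, Pou3f2, Gjb2, Tns4 and 2900026A02Rik were called lower against unloaded EVs. Fscn1, which encodes the actin bundler fascin, was at 44.7 and 56.2 CPM with unloaded EVs and at 25.4 and 20.4 CPM with exoCDN2 (log2 fold change -1.14, adjusted p = 0.00135). Ubald1, at 23.9 and 35.6 CPM with unloaded EVs, was lower with exoCDN2 in this comparison too (log2 fold change -1.07, adjusted p = 0.00543).

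Free CDN2 was given at 20 µg and exoCDN2 at 0.1 µg, so the doses differ and the values are set side by side. CDN2 (20 µg) had 382 genes called higher and 150 lower than PBS after 1 dose. Ifnb1 was at 14 and 54.9 CPM with CDN2 (20 µg), a range that contains the 24.1 and 20.1 CPM of exoCDN2. Cxcl10 was at 1601 and 2293 CPM, Usp18 at 306 and 319.8 CPM, Isg15 at 285 and 409 CPM and Cd274 at 229 and 319 CPM with CDN2 (20 µg), and none of these 5 genes was called between the treatments (adjusted p from 0.449 to 0.98). In a direct test 34 genes were higher (0.201%) and 69 lower (0.408%) in exoCDN2 tumors. Of 11 endothelial markers, 4 were called higher with exoCDN2 and 0 lower. The log2 difference was positive for 9 of them (median 1.39) and negative for Eng (-0.35) and Cldn5 (-0.48), and their summed level was 311 and 363 CPM with exoCDN2 and 327 and 324 CPM with CDN2 (20 µg). Outside this list, Flt1, a VEGF receptor, was at 20.1 and 17.6 CPM with PBS, 21.4 and 22.2 CPM with exoCDN2 and 7.65 and 6.57 CPM with CDN2 (20 µg), with a log2 difference of 1.61 (adjusted p = 0.0381). Pecam1, the endothelial adhesion protein CD31, a member of the list and chosen after its values were seen, was at 29.5 and 32.8, 35.2 and 35.6, and 11.4 and 13.7 CPM in the same groups (log2 difference 1.49, adjusted p = 0.0381). Adgrf5, an adhesion receptor of endothelium and lung epithelium, was at 24.2 and 22.3 CPM with exoCDN2 against 5.48 and 7.13 CPM (log2 difference 1.88, adjusted p = 0.0339). For Flt1, Pecam1 and Adgrf5 the CDN2 (20 µg) tumors lay under the PBS and exoCDN2 tumors.

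Genes lower in exoCDN2 than in CDN2 (20 µg) tumors included Kcnj13, a potassium channel, at 17.9 and 16.8 against 171 and 123 CPM (log2 difference -3.08, adjusted p = 0.0339), and Bbc3, at 8.16 and 8.45 against 19.9 and 19.1 CPM (log2 difference -1.23, adjusted p = 0.0339). Cx3cr1 (0.75 and 1.31 CPM with CDN2) and H2-DMb1 were in this set as well (adjusted p = 0.0383 for both). Hemoglobin was also lower, with Hbb-bs at 150.5 and 210.0 CPM with exoCDN2 and at 559 and 1319.6 CPM with CDN2 (log2 difference -2.38, adjusted p = 0.0467). The 6 tested red blood cell markers summed to 192 and 144 CPM with PBS, 324 and 466 CPM with exoCDN2 and 1283 and 2921 CPM with CDN2 (20 µg), and the part of blood content in the other differences was not tested. With any 1 tumor left out, 0 or 1 gene was called against CDN2 (20 µg) (1624 to 2698 at an unadjusted p under 0.05), and in a model blocked on the replicate number 0 (3118 unadjusted), whereas DESeq2 called 197 higher and 189 lower.

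**Figure D4:**
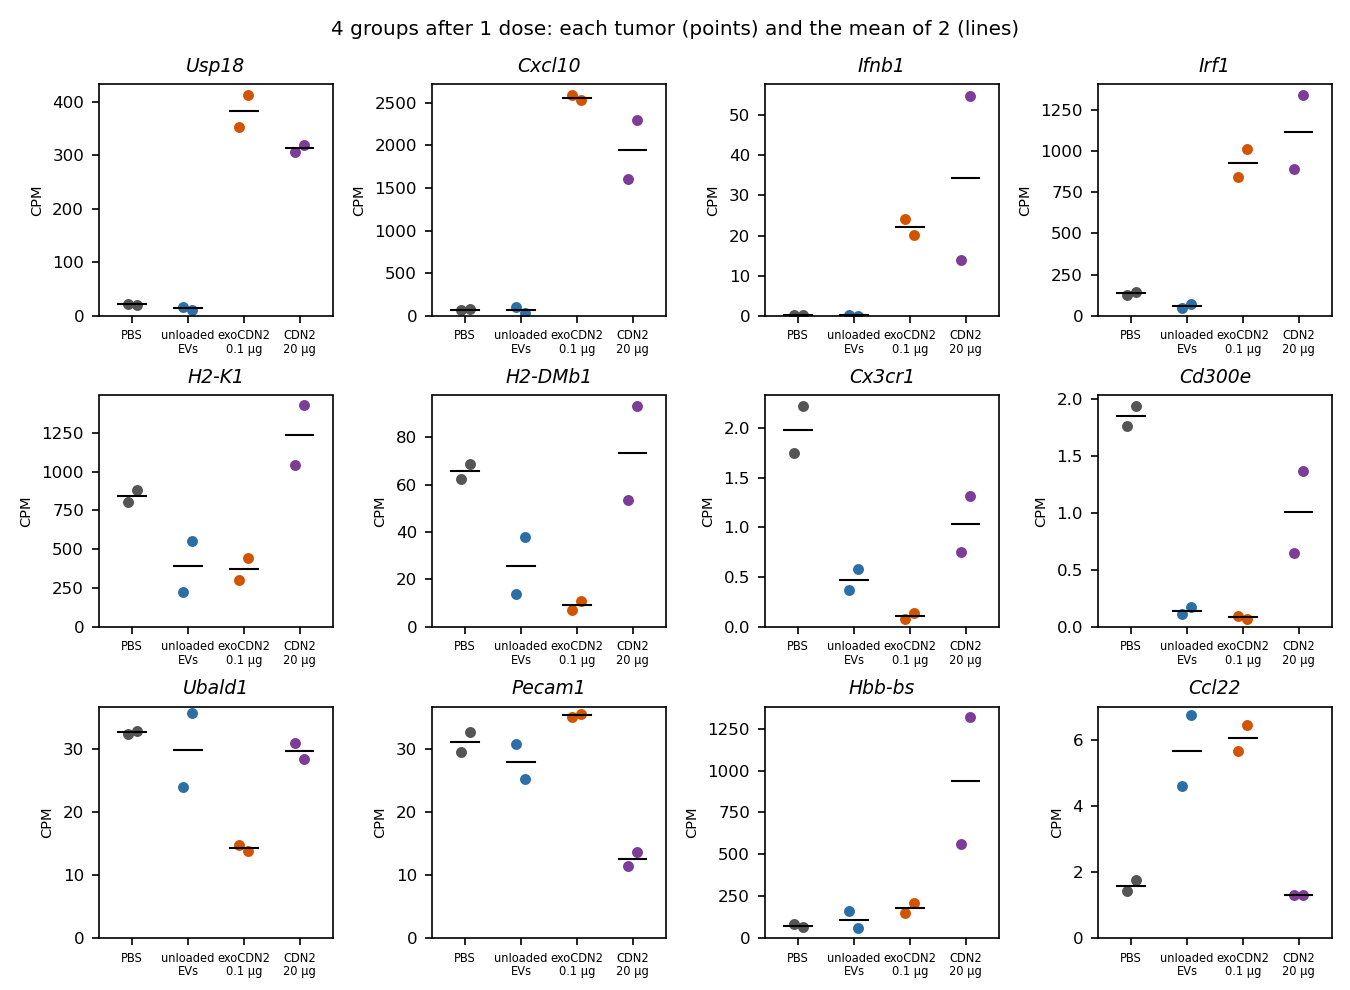
Level of 12 genes in the 2 tumors of each group after 1 dose (PBS, unloaded EVs, exoCDN2 0.1 µg and CDN2 20 µg), in CPM, with points for tumors and a line for the group mean. Usp18, Cxcl10 and Ifnb1 are low with PBS and unloaded EVs and high with both forms of CDN2, Cx3cr1 and Cd300e are low with unloaded EVs and exoCDN2, and Pecam1 is lowest with CDN2 (20 µg).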

How the data were processed

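RNA from whole B16F10 tumors was sequenced as paired-end reads. Per the study's methods, low-quality reads were removed and the rest aligned by OSA (OmicSoft ArraySuite) to GRCm38. Gene levels were estimated by RSEM with Ensembl models, and the authors deposited the unnormalized expected counts of every tumor. RSEM divides reads that match several genes, so the values of close paralogs and overlapping genes are uncertain, and strand use in counting is not given in the sources used here. Symbols and positions came from GENCODE M21, which matched 50376 of the 50600 gene identifiers.

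Expected counts were rounded and then tested in edgeR 4.0.16 (R 4.3.3). Genes with a count of at least 10 in a group's worth of tumors and a total of at least 15 were kept (filterByExpr), TMM gave the scaling factors, and a single quasi-likelihood fit covered 16 tumors in 8 groups. The 2 tumors whose labels give no amount of CDN2 were left out. Benjamini-Hochberg adjustment ran over all 16927 genes tested. Calls required an adjusted p below 0.05 together with a ratio above 2, as in the study's methods, which used DESeq2 (here an alternative, version 1.42.0). Total expected counts of all 16 tumors lay between 21608895 and 65983630. The floor of detection was set at 3 counts, and folds against a group at 0 are lower bounds against 3 counts per tumor, which cover counting error only. With 2 tumors per group, an exact permutation test cannot give a p under 0.333, so no single-gene permutation test was used. The procedure was tested on simulated data.

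The comparison and the gene lists, written from general knowledge, were chosen with earlier results of these data known. Genes were named by a rule: the 12 higher and 12 lower called protein-coding genes of smallest p, the 5 each way of largest fold and of highest CPM, at most 3 called genes each way per list (or its members of highest CPM, up to 2, where fewer than 2 were called), 13 genes the study discusses, and the 5 each way of smallest p against unloaded EVs and CDN2 (20 µg). Not all of them are printed, and exceptions are marked. Promoter sequences came from a RefSeq table (GRCm38.p6), matched by symbol. The alternatives were DESeq2, RLE scaling, no filter on low counts, no limit on the ratio, a fit of only the groups compared, the PBS tumors of 1 and 2 doses pooled, the replicate number as a block, and each tumor left out in turn (its group's remaining tumor then took its spread from the other groups).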

Additional observations from a re-analysis of the deposited data

Results flagged for a closer look

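For 47 of the 142 named genes, the change against PBS differed between 1 dose and 2 doses of exoCDN2 by a test of the difference itself (edgeR's quasi-likelihood interaction term, adjusted p under 0.05 and a ratio over 2). Over all genes tested, 5.12% were called with a higher and 1.7% with a lower difference. Many named genes were chosen for their distance from PBS in the 1-dose tumors, which enter the difference with the opposite sign. That choice by itself favors differences toward PBS, so the 47 are not comparable with the shares over all genes. Of the 47 genes, 13 had been called higher and 16 lower than PBS after 1 dose, and 18 had not been called. Each dose number was set against its own 2 PBS tumors, so these values also carry any difference between the PBS groups. They are differences on the log2 scale, second dose minus first. With each of the 8 tumors left out in turn, 30 of the 47 genes were called every time and none changed sign.

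Most genes for MHC class I presentation and most T cell markers had a higher difference called. Of 21 MHC class I presentation genes, 20 had a higher difference called (median 4.28), among them B2m at 3.93, with log2 fold changes of -0.75 and 3.18. The class II loading genes H2-DMa (7.35, from -3.06 to 4.29) and H2-DMb1 (6.51, from -2.86 to 3.65) belong to a list with 8 of 13 called. Of 14 T cell markers, 13 were called (median 5.71), with Cd8a at 7.51 (-2.22 and 5.29) and Lck at 1.26. The difference was 6.06 for Gzmb, 5.23 for Tbx21, 7.58 for Klrc1 (-2.39 and 5.19) and 3.94 for Klrk1. It was 3.79 for the monocyte marker Plac8, 2.23 for Cd68, and 1.58 and 2.22 for the complement genes C2 and C1qa. The calls of Lck, Plac8, Cd68 and C1qa were each lost in 6 or 7 of the 8 fits with a tumor left out.

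Interferon-stimulated genes were divided. Of 32 antiviral effectors, 17 had a higher difference called, 0 a lower one, and 8 had a negative value. The difference was 1.46 for Usp18, 2.31 for Isg15, 3.26 for Oasl2 and 3.92 for Bst2, whereas Rsad2 (-0.24), Cmpk2 (-0.21), Ifit2 (-0.88), Tor3a (-0.92), Helz2 (-0.63) and Cxcl10 (-0.36) were not called. All 18 GTPases of the Gbp and Irg families were called, with 2.38 for Gbp5, 4.21 for Gbp3, 3.56 for Irgm1 and 3.29 for Irgm2. The difference was 2.64 for Ccl5, 4.86 for Cxcl9 (1.70 and 6.57) and 1.52 for Lgals9. The feedback inhibitor Nfkbie (-2.33), the kinase Ripk2 (-1.78) and the homing receptor Ccr7 (-2.91) were less far above PBS after the second dose, and Ccr7 stood at -0.16 by then. The calls of Gbp5, Usp18 and Ccr7 were each lost in some of the fits with a tumor left out.

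The other genes that fell after 1 dose and had a difference called lay near or above PBS after 2 doses. They had been chosen as low in the 1-dose exoCDN2 tumors and then for a called difference. Values nearer PBS after 2 doses are therefore partly built into this set. Cd300e differed by 7.34 (-4.39 and 2.94), while Cx3cr1 differed by 3.97 and stood at -0.19 after 2 doses. The difference was 7.71 for Urah, 5.07 for B3gnt8, 3.79 for Tns4, 3.50 for Cebpa, 3.27 for Cldn5, 3.10 for Pou3f2, 2.67 for 2900026A02Rik, 1.66 for Ubald1, 1.63 for Gjb2, 1.30 for Stab1 and 1.28 for Mbp. Among the genes not called after 1 dose, it was 14.98 for Krt14, 3.6 for Kcnj13, 3.31 for Esr1, -1.36 for Mest, -2.06 for Cacna1c, -2.79 for Hbb-bs and -2.81 for Hba-a2. The calls of Urah, Pou3f2, Stab1, Mbp, Krt14 and Hbb-bs were each lost in 6 or 7 of the 8 fits with a tumor left out.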

How the results depend on the processing

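The genes called between exoCDN2 and PBS after 1 dose, 372 higher and 72 lower, kept more higher than lower calls under all alternatives run, but their number varied. They were 533 and 175 in DESeq2, 590 and 95 with the PBS tumors of 1 and 2 doses pooled, 810 and 356 without the filter on low counts, 919 and 422 in a fit of only the groups compared, 440 and 112 without the limit on the ratio, and 389 and 65 with RLE scaling. With each tumor left out in turn they were 140 to 237 and 4 to 15, of which 137 to 235 and 4 to 12 were among the 372 and 72. Of those calls, 365 and 69 were shared with DESeq2 and 360 and 48 with the pooled PBS tumors.

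Against unloaded EVs (427 higher and 72 lower), the counts were 559 and 137 in DESeq2, 823 and 278 without the filter, 503 and 116 without the ratio limit, 559 and 96 with only the groups compared, and 217 to 290 and 7 to 77 with a tumor left out. Against CDN2 (20 µg) (34 higher and 69 lower), they were 197 and 189 in DESeq2, 416 and 291 without the filter, 187 and 165 with only the groups compared, 29 and 36 with RLE scaling, 42 and 138 without the ratio limit, and 0 to 0 and 0 to 1 with a tumor left out. The change from 1 to 2 doses (866 higher and 288 lower) gave 1108 and 463 in DESeq2, 1486 and 559 without the filter, 920 and 409 without the ratio limit, 823 and 335 with RLE scaling, and 389 to 981 and 90 to 390 with a tumor left out. The causes were not tested.

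The replicate numbers run across groups, but nothing states that they pair tumors. Deviations of same-numbered tumors correlated at -0.05 between exoCDN2 and PBS, 0.24 between exoCDN2 and unloaded EVs and -0.10 between exoCDN2 and CDN2 (20 µg). In a model with a replicate block the calls were 363 and 72 against PBS (352 and 58 of them shared), 402 and 53 against unloaded EVs, 0 and 0 against CDN2 (20 µg) (3118 genes at an unadjusted p under 0.05), and 793 and 266 for the change from 1 to 2 doses.

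No named gene that was called reversed its direction. Of 142 named genes, 13 lost their call with the PBS tumors pooled, 4 with the block, 1 with RLE scaling and 24 to 43 with a tumor left out, while 3 gained one in DESeq2, 3 with the PBS tumors pooled, 14 without the filter and 15 with only the groups compared. Of 38 list medians, 6 changed sign with the PBS tumors pooled, 6 without the first PBS tumor and at most 3 under each other alternative. Pooling turned MHC class I presentation from -0.34 to 0.34 and the Th1 and memory factors from -0.17 to 0.15. With 2 tumors per group, differences within the spread of the tumors were not detectable.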
